A study of Mus musculus with 6 samples.

Results

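Transcripts of 10 genes of the NF-kappaB system were examined in follicular helper T (Tfh) cells, namely the 5 subunits Nfkb1, Nfkb2, Rel, Rela and Relb and the 5 inhibitors Nfkbia, Nfkbib, Nfkbid, Nfkbiz and Tnfaip3. They were taken by gene symbol from a table of 14744 genes. All 10 were present, and all 10 were among the 11296 genes with a normalized read count of at least 10 in at least 3 libraries, which were tested. Tfh cells are CD4+ T cells that give help to B cells within germinal centers. Here they came from mice aged 2 to 3 months on the C57BL/6 background and were sorted from mesenteric lymph nodes as CD4+B220-CD44+PD-1+CXCR5+, with 10000 to 30000 cells per sample. The 3 WT libraries were from Cd4-cre littermates. The other 3 were from mice of the genotype Bach2 fl/fl Cd4-cre, so that both groups carry the Cre transgene. The Cd4 promoter drives Cre in developing T cells, and deletion is therefore not limited to Tfh cells. Whether the 3 libraries of a group came from separate animals is not stated, and p-values measure the spread between these samples, which may be technical.

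NF-kappaB transcription factors are dimers of related subunits. In resting cells they are held in the cytoplasm by inhibitor proteins of the IkB family, and signals from the T cell receptor, costimulatory receptors and cytokine receptors activate kinases that mark these inhibitors for destruction. Several inhibitors are themselves targets of NF-kappaB and close a negative feedback loop, while a separate set of nuclear IkB proteins binds the subunits on DNA and can raise or lower transcription.

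The deleted gene was examined first, as a check on the labels. Bach2 was at 233, 222 and 105 normalized counts in WT replicates 1, 2 and 3 and at 399, 763 and 591 in replicates 1, 2 and 3 labelled Bach2-deficient. The libraries labelled Bach2-deficient were all above the WT libraries (log2 fold change 1.68, standard error 0.37, adjusted p = 0.141 in limma). Values are per gene and reads on exons that were not deleted are part of them, and 537 of the 9940 exonic bases of Bach2 are shared with an antisense gene. Because Bach2 goes against the label, every direction given here is that of the libraries labelled Bach2-deficient against WT. Among genes that the paper names as changed in Bach2-deficient Tfh cells are Gata3, reported as higher, and Foxp3 and Il17f, reported as lower. In these libraries their log2 fold changes were 1.48, -1.76 and -4.70, each without overlap between the groups. Il4 and Ifng, which the paper also names, are not given here, and an exchange of labels was not tested.

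The markers of the sorted population were present in all 6 libraries. Cd4 ranged from 2407 to 4131 normalized counts, Cxcr5 from 1271 to 2207, Pdcd1 from 1462 to 2708 and Bcl6, the factor that directs Tfh differentiation, from 342 to 818. WT replicate 1 stood apart, with 11648 genes detected above 0, where the others had 13111 to 13567. The depth recovered from the values was 6585742 reads for WT replicate 2 and 7823717 for WT replicate 3. Replicates 1, 2 and 3 labelled Bach2-deficient had 5045131, 10987752 and 7197242 reads. The values of WT replicate 1 summed to 7809702 normalized counts, and its reads were not recovered for the count tests.

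To show the regulatory sequence around these genes, the RefSeq promoter table (GRCm38.p6) was searched upstream of each start site. It holds 12 windows for 7 of the 10 members, Nfkb2, Rel, Rela, Nfkbia, Nfkbib, Nfkbid and Tnfaip3. The kappaB consensus was searched for on both strands over the 250 bases before each start. A match was found for 5 of these 7 genes, Nfkb2, Rel, Nfkbia, Nfkbid and Tnfaip3, against 4.46% of the 27025 genes in the table. The windows of Rela and Nfkbib held none. A match is a description of the letters, and binding was not measured. Matches lying outside annotated exons are given in capitals within their flanks, on the strand of the gene.
Rel, chr11:23771042-23771071, minus strand, from 92 bases before the start: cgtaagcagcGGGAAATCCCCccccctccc
Nfkbia, chr12:55492657-55492686, minus strand, from 29 bases before the start: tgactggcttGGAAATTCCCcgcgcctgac
Nfkbid, chr7:30422170-30422199, plus strand, from 226 bases before the start: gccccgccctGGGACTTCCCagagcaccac
Nfkbid, chr7:30422215-30422244, plus strand, from 181 bases before the start: gggccgaacaGGAATTCCCCgtgcgcgggg
Tnfaip3, chr10:19015516-19015545, minus strand, from 125 bases before the start: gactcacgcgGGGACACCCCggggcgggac
Tnfaip3, chr10:19015411-19015432, minus strand, from 12 bases before the start: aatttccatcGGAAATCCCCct
The Rel stretch holds overlapping matches on both strands, and the stretches of Nfkbid and Tnfaip3 lie before internal starts, within the annotated bounds of these genes. The core TGANTCA, which AP-1 and Bach factors can bind, stood upstream of 2 of the 7 genes, Tnfaip3 and Nfkb2, against 7.82% of all genes in the table. These letters read the same on both strands, and 0 of the matches overlapped a kappaB match.

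The members were compared by level first. Each value was divided by transcript length, taken from the longest GENCODE M21 transcript, since longer transcripts collect more reads. In WT libraries Nfkbia was the highest, at 1504 ± 176 (SD, n = 3) normalized counts per kb, which placed it above 95.6% of the genes tested. Nfkb1 followed at 357 ± 55.9, Nfkbid at 307 ± 53.8 and Nfkbib at 234 ± 30.7, and the WT values of neighbours in this order overlapped except between Nfkbia and Nfkb1. Rela was at 174 ± 13.7, Relb at 107 ± 54.5, Nfkbiz at 95.3 ± 40.5 and Rel at 67.9 ± 9.28, again with overlap between neighbours. Tnfaip3 at 46.9 ± 9.97 and Nfkb2 at 43.9 ± 18.4 per kb were the lowest and overlapped with each other. The values of Nfkbib and Rela did not overlap, nor did those of Rel and Tnfaip3.

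No member passed an adjusted p of 0.05. In limma on log2(normalized count + 1), 0 of 11296 genes did (0%), although 1144 genes had an unadjusted p under 0.05 with a higher value in the libraries labelled Bach2-deficient (10.1%) and 1157 with a lower value (10.2%). Among the 10 members 1 was higher at that threshold, Nfkbiz, and 1 was lower, Nfkbib. The groups did not overlap for 4 members: Rel and Nfkbiz had the 3 higher values in the libraries labelled Bach2-deficient, as did 14.6% of all genes tested, and Nfkbib and Nfkbid the 3 lower, as did 12.2%. These shares of members are near those of all genes. The median log2 fold change was 0.11 over the members and 0.08 over all genes tested. In bulk RNA, fewer cells of a type and less RNA per cell cannot be told apart.

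**Figure D1:**
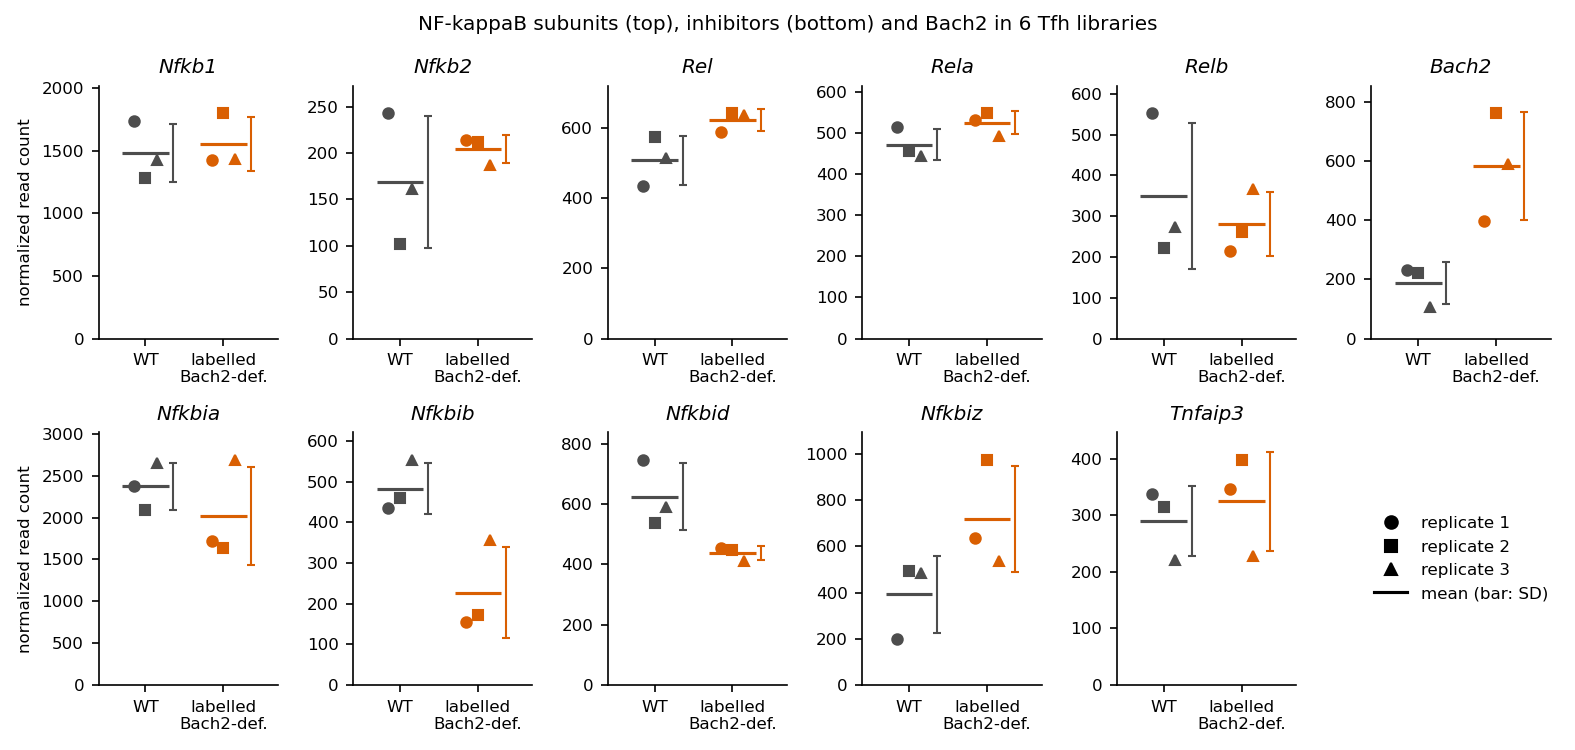
Normalized read counts (y axis, from 0, own scale for each gene) of the 5 subunits, the 5 inhibitors and Bach2 in WT libraries and in libraries labelled Bach2-deficient, with symbols for replicates, horizontal lines for means and bars for the SD (n = 3). The groups do not overlap for Rel, Nfkbib, Nfkbid, Nfkbiz and Bach2, and WT replicate 1 is the highest WT library for Relb and the lowest for Nfkbiz.

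Rel (chr11:23736847-23770970 of GRCm38, minus strand) encodes c-Rel, a subunit with a transactivation domain that is prominent in activated lymphocytes. Rel was at 435, 573 and 513 normalized counts in WT and at 587, 641 and 636 in the libraries labelled Bach2-deficient. The lowest of the latter lay just above the highest WT library, and the difference between group means was no larger than the range of the WT libraries. This difference was 0.30 on the log2 scale (standard error 0.22, adjusted p = 0.427 in limma), and it was 0.20 without WT replicate 1.

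Rela and Nfkb1 form the classical dimer. Rela, which carries the transactivation domain, was at 514, 457 and 444 normalized counts in WT and at 532, 548 and 493 in the libraries labelled Bach2-deficient, so that WT replicate 1 lay among the latter (log2 fold change 0.15, limma adjusted p = 0.695). Nfkb1, whose precursor protein is processed to the DNA-binding partner, was the most abundant subunit per kb. It ranged from 1282 to 1736 normalized counts in WT and from 1422 to 1800 in the other group, with a log2 fold change of 0.07 (95% confidence interval -0.38 to 0.52).

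Nfkb2 and Relb form the dimer of the alternative pathway, which receptors such as the lymphotoxin beta receptor engage. Both varied more within WT than between the groups. Relb was at 553, 221 and 275 normalized counts in WT libraries and at 214, 262 and 366 in the libraries labelled Bach2-deficient. WT replicate 1 was the highest for Relb, and the log2 fold change of -0.23 (limma adjusted p = 0.737) turned to 0.15 without that library. Nfkb2 was at 243, 102 and 161 normalized counts in WT, a 2.38-fold range that enclosed the 187 to 214 counts of the other group (log2 fold change 0.36, limma adjusted p = 0.577). It was 0.67 without WT replicate 1 and 0.0444 without WT replicate 2. For Nfkb2, 531 of 4584 exonic bases are shared with an antisense gene and 299 with Psd, and the library kit did not mark strand.

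Since a share within a library does not depend on its scaling, the composition of the subunits was compared next. Per kb of transcript, Nfkb1 made up 47.8% ± 1.2 of the summed subunit level in WT and 47.3% ± 3.04 in the libraries labelled Bach2-deficient (mean ± SD of 3 libraries). Rela followed at 23.4% ± 2.44 and 24.5% ± 1.74, Relb at 13.7% ± 4.47 and 10.9% ± 3.11, Rel at 9.37% ± 2.70 and 10.6% ± 0.50, and Nfkb2 at 5.70% ± 1.49 and 6.76% ± 0.68. The 5 shares overlapped between the groups. WT replicate 1 had the highest share of Relb, 18.8%, and the lowest share of Rel, 6.49%. The smallest exact 2-sided permutation p among the 5 shares was 0.4, and 3 libraries against 3 cannot go below 0.1.

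Inhibitors outweighed subunits in each library. The ratio of summed inhibitor to summed subunit levels per kb was 2.43, 3.06 and 3.41 in WT and 2.17, 1.92 and 2.91 in the libraries labelled Bach2-deficient. Replicate 3 labelled Bach2-deficient lay within the WT range, and the other 2 lay below it. The means were 2.97 ± 0.49 (SD, n = 3) and 2.33 ± 0.52 (SD, n = 3), and the exact permutation test gave p = 0.2, or 0.72 adjusted over the 5 shares and this ratio. A large part of the sum is Nfkbia, the most abundant inhibitor. Nfkbia alone, at 1041 to 1707 per kb, was above the summed subunits, at 648 to 898, in each library. The other inhibitors together did not outweigh the subunits in every library.

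**Figure D2:**
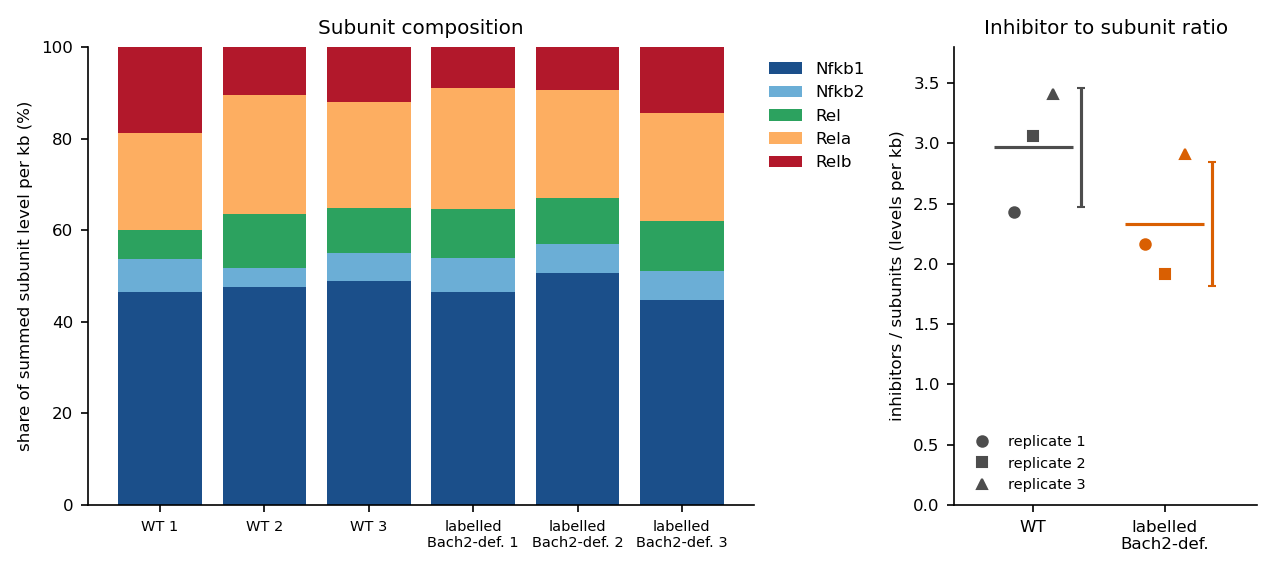
Left, share of each subunit (% of the summed level per kb of longest transcript) in each of the 6 libraries. Right, ratio of summed inhibitor to summed subunit levels per kb, with symbols for replicates, lines for group means and bars for the SD (n = 3). Nfkb1 makes up between 44.7% and 50.6% of the total in each library, and the ratio runs from 1.92 to 3.41.

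Nfkbib encodes IkB-beta, an inhibitor that holds NF-kappaB dimers in the cytoplasm and is less tied to rapid feedback than IkB-alpha. It had the largest log2 difference of the members. Nfkbib was at 434, 460 and 554 normalized counts in WT and at 154, 172 and 357 in the libraries labelled Bach2-deficient. All 3 of the latter were below all 3 WT libraries, with replicate 3 nearest to WT. The mean was 2.12-fold lower, with a log2 fold change of -1.18 (95% confidence interval -1.94 to -0.42, limma adjusted p = 0.147). With replicate 3 labelled Bach2-deficient left out, this became -1.56 with a limma adjusted p of 0.0381, in a fit where 507 of 11296 genes (4.49%) passed 0.05. DESeq2 on the 5 libraries with recovered reads, without WT replicate 1, gave -1.18 with an adjusted p of 0.0607, while 368 genes passed 0.05 (3.26%). Over all alternatives the adjusted p of Nfkbib ran from 0.000342 to 0.507. The gene lies at chr7:28758251-28767512 of GRCm38, and 42 of its 2169 exonic bases are shared with Sirt2 and 314 with Ccer2 on the other strand. Sirt2 was at 585, 549 and 647 normalized counts in WT and at 372, 412 and 589 in the other group, and its part in the Nfkbib values was not tested.

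Nfkbid (chr7:30421732-30428746, plus strand) encodes a nuclear IkB protein that T cells induce on stimulation and that is needed for full Foxp3 expression in developing regulatory T cells. Nfkbid was at 748, 536 and 592 normalized counts in WT and at 455, 449 and 412 in the libraries labelled Bach2-deficient. The groups did not overlap, and the spread was small in the latter group, where the highest value was 1.10 times the lowest. WT replicate 1 was the highest library. The difference of -0.50 on the log2 scale (standard error 0.23) had a limma adjusted p of 0.249. It was -0.36 without WT replicate 1 and -0.60 without WT replicate 2.

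Nfkbiz (chr16:55811375-55838899, minus strand) encodes IkB-zeta, a nuclear IkB protein that is induced by Toll-like and interleukin receptors and acts on secondary response genes. Nfkbiz was at 200, 492 and 485 normalized counts in WT and at 637, 976 and 538 in the libraries labelled Bach2-deficient. WT replicate 1 was the lowest library by far, and the other WT libraries came close to replicate 3 labelled Bach2-deficient. On the log2 scale the difference was 0.93 (95% confidence interval 0.10 to 1.77, limma adjusted p = 0.207), and it was 0.51 without WT replicate 1. Since Nfkbiz is also expressed by myeloid cells, the 10 myeloid and dendritic markers were summed in each library. They came to 5685, 13803 and 7747 normalized counts in WT and to 6346, 11840 and 4836 in the libraries labelled Bach2-deficient. Cst3 was the most abundant in the mean of the 6 libraries, and Lyz2 in the WT mean. Lyz2 ranged from 1407 to 7212 and Fcer1g from 342 to 2202 normalized counts, whereas Itgam was between 0 and 31.5. Within each group the 3 libraries stood in the same order by this sum and by Nfkbiz, with replicate 2 the highest in both. WT replicates 2 and 3 were nearly equal in Nfkbiz while their sums differed. Lyz2 and Cst3, which make up most of the sum, had lower means in the libraries labelled Bach2-deficient, whereas Csf1r, Adgre1, Fcer1g and Batf3 had higher ones, all with overlapping groups. Cd14 was lower without overlap between the groups (log2 fold change -2.29), at no more than 30.3 normalized counts. Flt3, at -1.05, and Itgax, at 0.21, had overlapping groups. The part of these cells in the Nfkbiz values was not tested.

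Nfkbia and Tnfaip3 are the feedback inhibitors best known as NF-kappaB targets. Nfkbia, which encodes IkB-alpha, was at 2375, 2094 and 2648 normalized counts in WT and at 1720, 1642 and 2694 in the libraries labelled Bach2-deficient. Replicates 1 and 2 of the latter were below WT, and replicate 3 was above it (log2 fold change -0.26, limma adjusted p = 0.512). The value was -0.13 without replicate 2 labelled Bach2-deficient and -0.49 without replicate 3. Tnfaip3 encodes a ubiquitin-editing enzyme that shuts off signaling upstream of the IkB kinases. It ranged from 220 to 337 normalized counts in WT and from 228 to 399 in the other group, and the log2 fold change was 0.14 (adjusted p = 0.809 in limma). The plot of member values shows this overlap for both genes.

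Long transcripts tended to have higher fold changes. Over 11264 genes the rank correlation of fold change with transcript length was 0.32 (Spearman's rho, across genes, which are not independent replicates). When a trend in length and GC content was removed from each library, the median log2 fold change of all genes moved from 0.08 to -0.04. That of the members moved from 0.11 to -0.28. At an unadjusted p under 0.05 the higher genes went from 49.7% to 33.8% of such genes. The positive values of Nfkb1, Nfkb2, Rel, Rela and Tnfaip3 turned to -0.11, -0.31, -0.01, -0.25 and -0.30. Relb moved from -0.23 to -0.67 and Nfkbia from -0.26 to -0.04. Nfkbib was at -1.32, Nfkbid at -0.55 and Nfkbiz at 0.60 in that fit, where none passed an adjusted p of 0.05 and the 3 values of Nfkbiz no longer lay above all WT values. With a weight estimated for each library, which was 0.206 for WT replicate 1 and 5.54 for replicate 2 labelled Bach2-deficient, 4168 of 11296 genes (36.9%) passed 0.05. In that fit 4 of the 10 members passed, Nfkbib, Nfkbiz, Nfkbia and Tnfaip3, with log2 fold changes of -1.55, 0.95, -0.53 and 0.60.

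**Figure D3:**
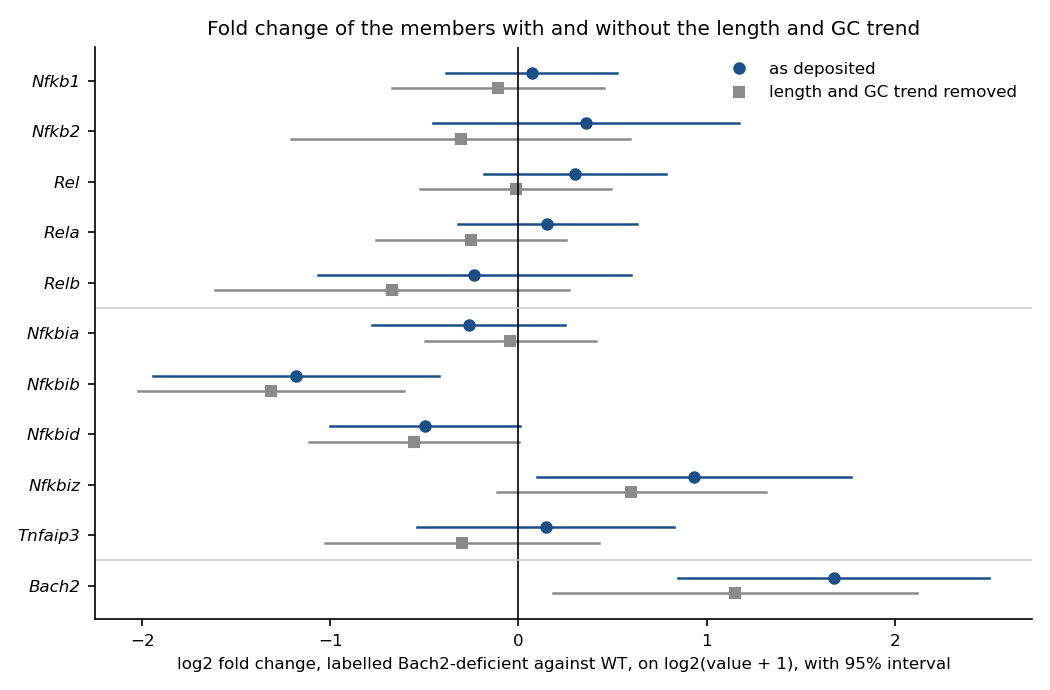
Log2 fold change (x axis, log2 scale) of each member and of Bach2 in the libraries labelled Bach2-deficient against WT, with 95% confidence intervals, from values as deposited (circles) and after removal of the length and GC trend (squares). Nfkbib is at -1.18 and -1.32, and Nfkb1, Nfkb2, Rel, Rela and Tnfaip3 change sign.

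The pathway around the members was described through lists of genes grouped by role. Of the 152 tested genes of these pathway lists and of the marker lists below, 0 passed an adjusted p of 0.05 in limma. With library weights 75 passed, in DESeq2 on 5 libraries 11, and in limma without replicate 3 labelled Bach2-deficient 9. These stand beside 36.9%, 3.26% and 4.49% of all genes. In DESeq2 the pathway genes that passed were Il1rl1, Tnfrsf9 and Tank. The others were the markers Cd79a, Icos, Cd3e, Foxp3, Egr1, Cd79b, Nr4a1 and Klrb1c. Without replicate 3, the pathway genes were Cd83, Ube2n, Cd28, Tnfrsf4, Tab2 and Ikbke, and the markers Cd3e, Jund and Icos. Genes outside the naming rule that are given to complete a count were chosen after their values were seen. Over all genes tested, 10.1% were higher and 10.2% lower at an unadjusted p under 0.05. Among 30 kinases and adaptors that activate NF-kappaB, 5 were higher (Tab2, Irak1, Rbck1, Traf3 and Ikbkb) and 1 was lower (Ube2n) at an unadjusted p under 0.05, and their median log2 fold change was 0.345 against 0.08 for all genes tested. Ube2n, the ubiquitin-conjugating enzyme that builds signaling chains and the most abundant gene of the list, was at 4294, 3817 and 4723 normalized counts in WT and at 1808, 2200 and 3189 in the libraries labelled Bach2-deficient (log2 fold change -0.87, limma adjusted p = 0.142). Tab2, an adaptor that joins ubiquitin chains to the kinase Map3k7, was at 564, 707 and 623 in WT and at 1456, 1248 and 950 in the other group (0.93, adjusted p = 0.141). Irak1, a kinase of interleukin and Toll-like receptor signaling, and Rbck1, a part of the linear ubiquitin assembly complex, had log2 fold changes of 0.95 and 0.71. The groups did not overlap for Ube2n, Tab2, Irak1, Rbck1 and Traf3, and over the list this held for 8 higher and 3 lower genes, beside 14.6% and 12.2% of all genes tested. After removal of the length and GC trend the median of the list was 0.125.

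Of 18 tested upstream receptors, 4 were lower and 1 was higher at an unadjusted p under 0.05, beside 10.2% and 10.1% of all genes tested. Tnfrsf4, or OX40, was the most abundant receptor in the mean of the 6 libraries. It was at 5171, 3052 and 4258 normalized counts in WT and at 1543, 1685 and 2667 in the libraries labelled Bach2-deficient (log2 fold change -1.09, limma adjusted p = 0.141). Tnfrsf9 was at 3020, 1096 and 1492 in WT and at 343, 600 and 632 in the other group (-1.75, adjusted p = 0.141). Cd28 and Tnfrsf18, which complete this count, had log2 fold changes of -0.83 and -0.75 and likewise did not overlap between the groups. The higher receptor, Il1rl1, had a log2 fold change of 2.07 and its groups overlapped. In DESeq2 on 5 libraries Il1rl1 was at 2.59 (adjusted p = 0.00505) and Tnfrsf9 at -1.33 (adjusted p = 0.00521). In that test 3.26% of all genes passed 0.05. The median of the list was 0.345, but -0.25 over genes with a mean of at least 50, where several Toll-like and TNF family receptors near 0 were left out, and -0.19 without WT replicate 1.

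Of all genes tested, 10.1% were higher and 10.2% lower at an unadjusted p under 0.05. Known NF-kappaB targets had 3 higher and 6 lower genes of 32 tested. Their median was -0.33, but -0.13 with library weights and -0.415 after removal of the length and GC trend. It ran from -0.51 to -0.20 when each library was left out in turn. The groups did not overlap for 3 higher and 5 lower targets, beside 14.6% and 12.2% of all genes tested. Ltb, which encodes lymphotoxin beta and was the most abundant target, ranged from 3736 to 4801 normalized counts in WT and from 2362 to 6350 in the other group, where replicate 3 was above all WT libraries. Cd83, a surface protein of activated lymphocytes, was at 1382, 882 and 1152 in WT and at 369, 372 and 780 in the libraries labelled Bach2-deficient (log2 fold change -1.23, limma adjusted p = 0.141). Cflar, an inhibitor of death receptor signaling, was at 403, 885 and 742 in WT and at 1478, 1323 and 1043 in the other group (0.98, adjusted p = 0.152). The log2 fold change of Cflar was 0.645 without WT replicate 1. The other higher targets were Xiap and Il6, the latter at no more than 34.2 normalized counts. Besides Cd83, the lower targets were Ccl4, Ccr7, Bcl3, Tnf and Bcl2a1d. Their log2 fold changes were -2.77, -1.14, -1.03, -0.92 and -0.55, and the groups overlapped for Ccl4, Ccr7 and Bcl3. Of 17 deubiquitinases and other brakes, 5 were higher (Nlrc5, Peli1, Rnf11, Nlrc3 and Otud7b) and 1 was lower. Their median was 0.19, but 0.0296 after removal of the length and GC trend, and it ran from 0.0828 to 0.38 when each library was left out. The lower gene, Tank, was the most abundant in the mean of the 6 libraries and had a log2 fold change of -0.79 with overlapping groups. In DESeq2 on 5 libraries, without WT replicate 1, Tank was at -1.14 (adjusted p = 0.00904), where 3.26% of all genes passed 0.05. The 5 higher genes had their lowest value in WT replicate 1, and without that library 1 gene of the list was higher and 3 were lower. The 8 other IkB-like and NF-kappaB genes had a median of -0.05, with none higher and 1 lower. That gene, Bcl3, a nuclear IkB protein, ranged from 322 to 556 normalized counts in WT and from 137 to 340 in the other group. Nkap, the most abundant gene of that list in the mean of the 6 libraries, had a log2 fold change of 0.38. Traf1, Birc3, Nfkbie, Bcl3 and Tnip1 were counted both among the targets and in the list of their role. Il2ra was counted both among the targets and among the regulatory T cell markers.

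**Figure D4:**
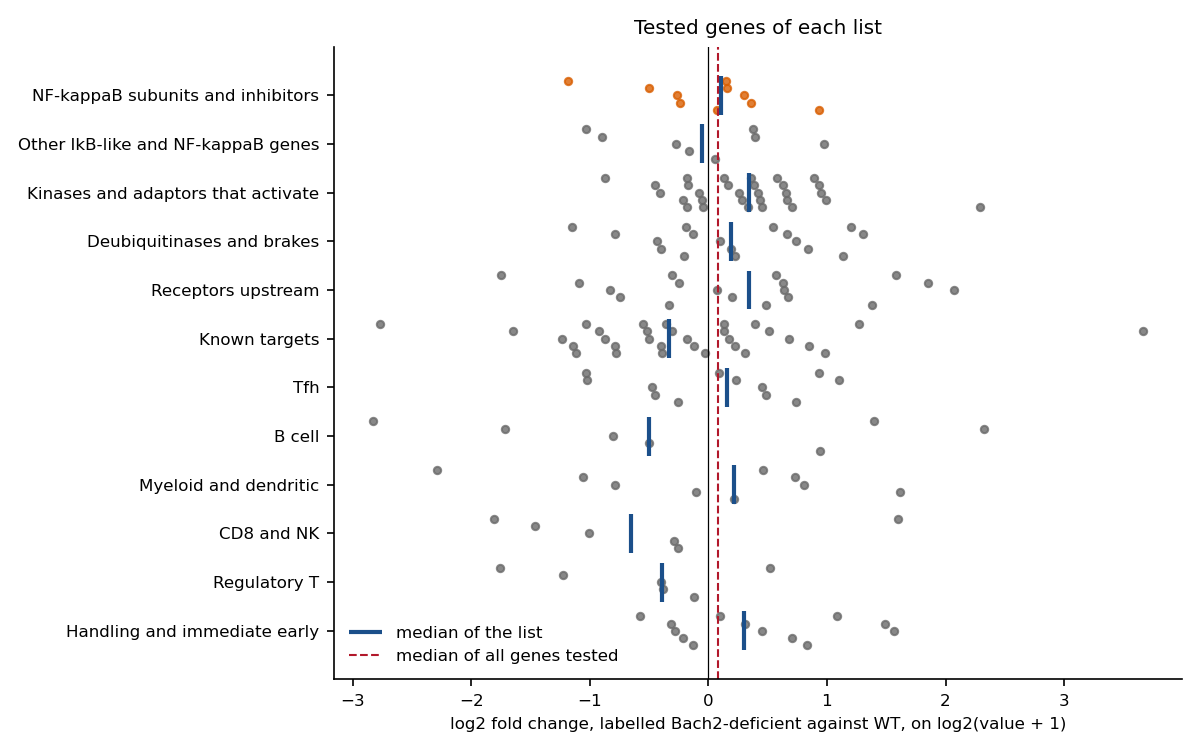
Log2 fold change (x axis, log2 scale) of each tested gene in the libraries labelled Bach2-deficient against WT, by list, with the list's median as a bar and the median of all genes tested, 0.08, as a dashed line. The median is 0.11 for the subunits and inhibitors, 0.345 for activating kinases and adaptors and -0.33 for known targets.

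Markers of the sorted cells, of other cells and of handling were measured in the same libraries. Among all genes tested, 10.1% were higher and 10.2% lower at an unadjusted p under 0.05. Of 12 Tfh markers, 4 were higher (Tox2, Cd44, Bcl6 and Cd4) and 2 lower (Cd3e and Icos) at that threshold. Their median was 0.16, but -0.15 when libraries were weighted and -0.0257 after removal of the length and GC trend. Cd3e, a chain of the T cell receptor complex, and Icos, a costimulatory receptor of Tfh cells, had log2 fold changes of -1.02 and -1.03, Tox2 and Cd44 of 1.10 and 0.93, and Sh2d1a, the most abundant, of -0.45. That of Sh2d1a was -0.99 with library weights and -0.22 without WT replicate 3. The 6 regulatory T cell markers had none higher and 2 lower, with a median of -0.39. Their sums were 7255, 6966 and 8727 normalized counts in WT and 6800, 5918 and 5188 in the libraries labelled Bach2-deficient, with Ikzf2 the most abundant. Foxp3 was at 222, 315 and 344 in WT and at 47.3, 140 and 91.0 in the other group (-1.76, limma adjusted p = 0.141), and Capg and Ctla4 had log2 fold changes of -1.23 and -0.38. These 3 genes were lower without overlap between the groups, although Ctla4 was at 0.11 after removal of the length and GC trend. The values of Foxp3 lay in the same direction as those of Nfkbib and Nfkbid, and of Tnfrsf4 and Tnfrsf9, receptors that regulatory T cells also express. The groups overlapped for Ikzf2, at -0.12, Il2ra, at -0.40, and Ikzf4, at 0.52, and these signs turned in some alternatives. The part of regulatory T cells in those values was not tested.

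B cell markers were low. Cd79b, the most abundant, ranged from 112 to 369 normalized counts in WT and from 102 to 145 in the libraries labelled Bach2-deficient. Of 7 tested, none was higher and 1 was lower, Ms4a1, with a log2 fold change of -2.83. The median was -0.50, but 0.26 without replicate 2 labelled Bach2-deficient, and the other markers had overlapping groups. Of these, Cd79a, Cd79b and Pax5 had log2 fold changes of -1.72, -0.80 and -0.50, and Cd22, Cr2 and Fcer2a of 0.94, 1.40 and 2.33, with Cr2 and Fcer2a at 0 in WT replicate 1. In DESeq2 on 5 libraries Cd79a was at -2.71 (adjusted p = 0.000455) and Cd79b at -1.31 (adjusted p = 0.0285). None of the other B cell markers passed 0.05 there, beside 3.26% of all genes. The 6 CD8 and NK cell markers summed to 997, 1301 and 942 in WT and to 491, 746 and 556 in the other group, with Cd8b1 the most abundant, 1 gene lower (Eomes) and a median of -0.65. Eomes was at 507 normalized counts in WT replicate 1 and at 155 and 72.8 in the other WT libraries, and its log2 fold change of -1.80 became 0.0316 with library weights. Of 9 tested myeloid and dendritic markers none had an unadjusted p under 0.05, although Cd14 was lower without overlap between the groups. Their median was 0.21, but -0.15 after removal of the length and GC trend, and it ran from -0.15 without WT replicate 3 to 0.89 without replicate 3 labelled Bach2-deficient. Of 13 tested handling and immediate early genes 2 were higher and 1 was lower (Dnajb1), with a median of 0.305. Egr1, which is induced within minutes of stimulation or tissue handling, and Jund, an AP-1 subunit, had log2 fold changes of 1.49 and 1.09, and Btg2, the most abundant, of 0.31. Their sums were 6686, 5476 and 6591 normalized counts in WT and 7091, 6660 and 6685 in the libraries labelled Bach2-deficient. The part of these cells and of handling in the values of the members was not tested.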

How the data were processed

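RNA from sorted Tfh cells was sequenced as 6 libraries, 3 per group, and samples were grouped by their labels. The deposited signal is a normalized read count per gene, made by the authors by dividing counts by a size factor of each library. The submitters' processing notes name STAR 2.5.2b, DESeq and DESeq2 1.20.0 in R 3.5.1 with the GRCm38 build, whereas the methods of the study name Tophat2 and HTSeq. Which aligner made these values was not settled.

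The groups were compared on log2(value + 1) by limma 3.58.1 (R 4.3.3) using a variance trend. Tested were the 11296 genes that reached a value of 10 in 3 or more libraries, with Benjamini-Hochberg adjustment over all of them. Fold changes on this scale understate the change of low genes. In each library 100% of values were whole multiples of 1 step within 0.01 steps. Whole reads were recovered from 5 libraries and tested with edgeR 4.0.16 and DESeq2 1.42.0. WT replicate 1 was left out of these, as its step of 1.01 is too near a power of 10. Recovered depth was 5045131 to 10987752 reads. Whether depth or the spread between libraries limits precision for the members was not tested. PCR copies were not told apart.

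Shares and ratios were tested with an exact 2-sided permutation test over libraries. Transcript lengths came from GENCODE M21 on GRCm38, with 14329 symbols matched and 364 more by an older name. The length and GC trend was fitted with mgcv 1.9.3. Promoters were from RefSeq. Genes named are the members, Bach2 and, in each list, the gene with the highest mean over the 6 libraries, called the most abundant. Up to 5 genes of each list with an unadjusted p under 0.01 and groups that do not overlap are also named. The Tfh markers of the sort are named besides. Named after their values were seen are Sirt2, which overlaps Nfkbib, and Gata3 and Il17f, which the paper names. So are genes that complete a count or show how a list varied. The members and lists were chosen with earlier results of these data known. Procedures were tested on simulated data. Alternatives were other pseudocounts, filters, scalings, variance models, library weights, tests of recovered reads, the replicate number as a block, and each library left out in turn. 1 marker gene and the sum that includes it are not reported here.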

Additional observations from a re-analysis of the deposited data

How the results depend on the processing

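Of 190 log2 fold changes of members under the alternatives, 168 kept their sign and missed an adjusted p of 0.05, 5 passed it in the same direction and 17 changed sign. Genes past the thresholds of the study (adjusted p under 0.01, over 2-fold) numbered 0 in limma, 561 higher and 567 lower with library weights, 33 higher and 57 lower in DESeq2 on 5 libraries, and 0 in the other alternatives and when each library was left out. Bach2 passed 0.05 with library weights (2.36) and in DESeq2 on 5 libraries (1.81). It ranged from 1.31 to 1.93 when 1 library was left out.

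At an unadjusted p under 0.05, the 1 member higher became 4 with library weights and 0 with a constant prior variance, in edgeR and DESeq2 on 5 libraries, and after removal of the length and GC trend, with or without the replicate block. The 1 member lower became 2 with no filter or median rescaling and 3 with library weights. Of all 11296 genes, 2748 were higher and 2580 lower at that threshold with library weights, against 1144 and 1157 without them. Leaving out 1 library gave 0 to 1 higher and 1 to 2 lower. Of members without overlap, the 2 higher became 1 with median rescaling, 0 with the length and GC trend removed, with or without the replicate block, and 4 in the 5 libraries of edgeR and DESeq2. Leaving out 1 library gave 2 to 4. The higher counts there follow from fewer libraries, and the cause of the other moves was not tested.

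With the length and GC trend removed, with or without the replicate block, Nfkb1 was at -0.11, Nfkb2 at -0.31, Rel at -0.0137, Rela at -0.25, Tnfaip3 at -0.30 and Cd8b1 at 0.0317. Relb turned to 0.18 in edgeR and 0.15 in DESeq2 on 5 libraries. Cst3 turned to 0.0726 under quantile normalization and 0.25 with library weights, and Ikzf2 to 0.0716 under quantile normalization. When 1 library was left out, Nfkb1 ran from -0.0409 to 0.19, Relb from -0.51 to 0.15, Tnfaip3 from -0.0416 to 0.38, Cst3 from -0.32 to 0.0616, Cd8b1 from -0.87 to 0.13 and Ikzf2 from -0.36 to 0.0538. Ltb ran from -0.73 to -0.0170, Tank from -1.15 to -0.52, Btg2 from 0.17 to 0.42 and Cd79b from -1.26 to -0.40. List medians ran from -0.18 to 0.0880 for other IkB-like genes, 0.23 to 0.48 for kinases, -0.91 to -0.36 for CD8 and NK cells, -0.61 to -0.37 for regulatory T cells and 0.20 to 0.60 for handling. The difference between groups in the share of Nfkb1 ran from -2.18 to 0.77 percentage points, of Rel from -0.26 to 2.43 and of Rela from -0.10 to 2.34. That in the share of Relb ran from -4.63 to -0.29 and of Nfkb2 from 0.25 to 1.73. The inhibitor ratio stayed lower in the libraries labelled Bach2-deficient, by a difference of -0.92 to -0.42, with exact permutation p of 0.2 to 0.4.

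The replicate numbers did not pair the samples (correlations of same-numbered deviations -0.0689, 0.116 and -0.0386). The replicate block left the fold changes as they were, gave 0 genes past the thresholds and changed no call of a member.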
